A study of Mus musculus with 30 samples.

Results

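The Eph, ephrin, Slit, Robo and netrin genes, whose products steer growing axons and migrating cells, were followed in the developing olfactory tissue of the mouse. Members were chosen by name alone: transcript clusters with a single symbol for an Eph receptor, an ephrin, a Slit, a Robo, a netrin or a netrin receptor, with 1 cluster per gene, the one of highest mean over all 30 arrays. This gave 35 of the 14860 genes that have a cluster with a single symbol. They are 4 ephrin-A and 3 ephrin-B ligands, 9 EphA and 3 EphB receptors, 2 Slit ligands, 4 Robo receptors, 3 netrins, the netrin-G gene Ntng1 and 6 netrin receptors. All 35 had values on every array, and no filter on low values was applied. Epha2 was the only member with more than 1 such cluster. Efna3, Ephb2, Ephb6, Ntn5, Ntng2 and Slit3 were not analysed here.

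RNA was hybridized to Affymetrix exon arrays, 3 per group. The time course has 24 arrays of untreated wild type embryos, with an epithelial (EPI) and a mesenchymal (MES) fraction at each of E11.5, when the tissue is the olfactory placode (OPL), E12.5, when it is labelled as placode too but named olfactory epithelium (OE) in the methods, and E14.5, when the OE and the vomeronasal organ (VNO), which senses pheromones, were taken apart. A further 6 arrays hold olfactory tissue at E12.5 of embryos with the Dlx5 KO genotype, a lacZ-carrying null allele, and of wild type (WT) embryos, with no fraction given. The labels name 1 background for all animals, F1 of a C57Black6 x DBA cross, and give each array as a pool of no fewer than 4 embryos. Epithelia and adjacent mesenchyme were dissected by hand from thick sections, and according to the methods EPI samples still hold attached MES. The study describes collecting MES tissue after genes found in EPI had been surveyed, to gauge this carry-over. Whether EPI and MES arrays were hybridized in the same round is not stated in the sources used here. In every comparison of EPI with MES, fraction and round of collection therefore cannot be told apart, and scaling whole arrays does not separate them. KO embryos came from heterozygous crosses and WT embryos from crosses of wild types, and the whole epithelial lining of the nose was taken from KO embryos because OE and respiratory lining could not be separated there, so that genotype and dissection cannot be told apart.

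Ephrins are cell-surface ligands, held by a lipid anchor in class A and by a transmembrane stretch in class B, and the Eph receptor tyrosine kinases that bind them mostly prefer ligands of their own class. Slits are secreted and bind Robo receptors, which as a rule turns axons away. Netrins attract through Dcc and Neo1 and repel through the Unc5 receptors. In the nose, the axons of sensory neurons leave the epithelium, cross the mesenchyme together with ensheathing glia and migrating GnRH neurons, and enter the olfactory bulb, where in mice ephrin-A levels and the pairing of Robo2 with Slits help to place them.

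The values are log2 intensities, 1 per transcript cluster, and were brought to a common distribution across the 24 time-course arrays, or across the 6 Dlx5 arrays, by quantile normalization. This step matters, because the array medians as deposited lay between 6.41 and 7.06 in EPI, between 6.41 and 6.44 in EPI at E11.5, and between 7.01 and 7.17 in MES. A gene was called when limma gave an adjusted p of at most 0.05 and the difference was at least 0.9 on the log2 scale in either direction. Levels are not compared between genes, since each probe set has its own brightness, and in pieces of tissue fewer cells of a type and less RNA per cell cannot be told apart. No detection call or background level comes with the values, so whether a member of low values was detected is not known. The pools are described as independent, but the sources used here do not say whether pools shared litters, so that the p-values speak of the spread among the pools only.

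Before the guidance genes, the fraction labels were set against lists of cell type markers, each list given as the mean log2 level of its genes in an array. At E11.5 and E12.5, markers of immature olfactory neurons were called higher in EPI for 7 of 11 genes at each age, and 4 of 11 nasal mesenchyme markers were called lower in EPI at each. Of the respiratory and surface epithelium list, Ehf, Epcam, Cdh1, Cldn3 and Cldn4 were called higher in EPI at E12.5, and Krt5 (-1.23) and Krt14 (-1.15) lower. In the OE at E14.5, 2 neuron markers were called higher in EPI and 1 mesenchyme marker lower. Skeletal muscle markers in the OE had list levels of 6.28 to 6.50 in EPI and 5.67 to 5.87 in MES. Cartilage and bone markers there overlapped, at 8.99 to 10.07 in EPI and 9.70 to 9.73 in MES. In the VNO at E14.5 the fractions departed further from their labels. Neuron markers there had list levels of 9.09 to 9.15 in EPI and 9.55 to 9.61 in MES, with 4 of 11 called lower in EPI, and mesenchyme markers had 10.83 to 10.85 in EPI and 10.82 to 10.86 in MES. All 7 skeletal muscle markers measured were called higher in EPI of the VNO, with a median difference of 2.31. Epithelial markers did follow the label, with 6 of 12 genes of respiratory and surface epithelium called higher in EPI of the VNO (list level 9.64 to 9.67, against 8.56 to 8.64 in MES) and sustentacular cell markers at 8.66 to 8.82 in EPI, against 7.63 to 7.81 in MES. By the methods, all arrays met the authors' quality control and clustered by sample group, and real-time PCR on OE and MES samples was used to gauge carry-over between fractions. The VNO arrays are called here by their labels. Were these labels exchanged, the sign of every difference between EPI and MES of the VNO would turn, and the VNO stage differences and their comparison between fractions would take other values. In EPI of the OE at E14.5, replicate 2 stood apart, and the neuron list ranged from 9.24 to 10.22 over its 3 arrays.

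Of the 35 members, few were called in any comparison of EPI with MES. At E11.5, 2 were called higher in EPI (Ephb1 and Slit2), beside 3.93% of all genes tested, and 3 lower (Ephb3, Ntn3 and Ntng1), beside 1.19%, so 14.3% of members were called in either direction beside 5.12% of all genes. At E12.5, Ephb1 and Ntn1 were called higher, beside 3.46%, and none lower, beside 2.09%, which is 5.71% of members and close to the 5.55% of all genes called either way. In the VNO at E14.5, Efna5 and Epha6 were called lower in EPI, beside 2.02%, and none higher, beside 6.72%, which is under the 8.74% of all genes. In the OE at E14.5, Efna5, Robo1 and Robo2 were called lower, beside 1.39%, and none higher, beside 6.5%, or 8.57% of members beside 7.89% of all genes. Arrays of EPI and MES did not overlap for 22 members at E11.5, beside 56.2% of all genes, for 29 at E12.5, beside 53.8%, for 29 in the VNO, beside 63.9%, and for 21 in the OE, beside 60%. The median difference of the members was -0.18 at E11.5, -0.15 at E12.5, 0.039 in the VNO and 0.15 in the OE, beside medians over all genes of 0.00090, -0.0040, 0.17 and 0.22. Without EPI E11.5 replicate 3, 3 members were called at E11.5, and 1 was called at E12.5 without EPI E12.5 replicate 2 or without MES E12.5 replicate 2.

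The scaling bears on these counts. As deposited, all genes of EPI at E11.5 sat lower by a median of 0.65, and 16 members were called lower, beside 25.6% of all genes, and none higher, beside 0.804%, with 3.04% of all called genes higher in EPI instead of 76.8%. At E12.5 that share was 41.2% as deposited instead of 62.3% (1 member higher and 2 lower, beside 2.45% and 3.5% of all genes), in the VNO 34.3% instead of 76.9% (2 members lower, beside 5.25%) and in the OE 12.3% instead of 82.4% (4 members lower, beside 6.44%). When arrays were only centred on their medians, the share in the VNO was 87.6%, with 1 member called higher and 1 lower, beside 9.61% and 1.36% of all genes.

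Between E14.5 and E11.5, Epha3, Epha5, Epha6 and Unc5d were each called higher in 3 of 4 comparisons, all but MES of the OE. In EPI, the VNO arrays had 5 members called higher than E11.5 (Epha3, Unc5d, Epha5, Epha6 and Epha2), beside 10.3% of all genes, and 2 lower (Dcc and Efna5), beside 2.2%, which is 20% of members and 12.5% of all genes either way. The OE arrays had 4 higher (Epha5, Epha3, Epha6 and Unc5d), beside 9.44%, and Epha7 lower, beside 1.91%, or 14.3% of members and 11.3% of all genes. Markers of other cell types were called higher in EPI of E14.5 too. In the OE arrays these were 8 of 9 cartilage and bone markers (list level 8.99 to 10.07, against 6.29 to 6.43 at E11.5), 6 of 11 nasal mesenchyme markers (10.39 to 10.82, against 9.19 to 9.44) and 6 of 7 skeletal muscle markers (6.28 to 6.50, against 4.88 to 4.95), beside 6 of 8 mature neuron markers (7.28 to 7.45, against 5.61 to 5.81). In the VNO arrays they were 8 of 9, 7 of 11, 7 of 7 and 6 of 8. Their part in the values of the members was not tested. In MES, the VNO arrays had 6 members called higher than E11.5 (Epha6, Epha5, Epha3, Slit2, Unc5d and Ephb1), beside 7.15% of all genes, and none lower, beside 2.17%, or 17.1% of members and 9.32% of all genes. The MES arrays of the OE had 3 higher (Robo2, Ephb1 and Ntn1), beside 6.13%, and 3 lower (Epha7, Epha4 and Efna2), beside 1.63%, or 17.1% of members and 7.76% of all genes. Marker lists were higher in these MES arrays as well. Cartilage and bone markers were at 9.21 to 9.26 in the VNO and 9.70 to 9.73 in the OE, against 6.76 to 6.87 at E11.5 (6 and 7 of 9 called higher). Markers of respiratory and surface epithelium were at 8.56 to 8.64 in the VNO and 7.99 to 8.03 in the OE, against 6.35 to 6.50 at E11.5 (10 of 12 called higher in each), and 7 of 8 sustentacular and 9 of 11 immature neuron markers were called higher in each. Their part in the values of the members in MES was not tested either.

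At E12.5 fewer genes were called against E11.5. No member was called in EPI, where 1.37% of all genes were called higher, 1.84% lower and 3.21% either way by limma, 11 members were under an unadjusted p of 0.05 in limma, beside 36.7% of all genes, and Rank Products called no member. In MES, Robo2 was the 1 member called, higher, beside 1.3% of all genes higher, 0.196% lower and 1.49% either way. Arrays of the later and the earlier stage did not overlap for 17 members in EPI at E12.5 (46.3% of all genes), 27 in EPI of the VNO (65.2%), 20 in EPI of the OE (58.5%), 26 in MES at E12.5 (40.4%), 30 in MES of the VNO (60.3%) and 27 in MES of the OE (61.9%). The stage comparisons of a fraction share their E11.5 arrays, so their lists are not independent of each other.

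Rank Products, which the authors used, made fewer calls at the same minimum size. Between fractions it called Ephb1 higher in EPI at E12.5, beside 2.24% of all genes, and no other member. Between stages it called Epha3 higher in EPI of the VNO, beside 3.07% of all genes, Epha3, Epha5, Epha6, Slit2 and Unc5d higher in MES of the VNO, beside 3.61%, and Epha7 lower in MES of the OE, beside 3.63%. Epha6 was also called higher in MES of the VNO than of the OE, beside 0.743%. The further limma calls of members between fractions, stages or tissues given below were not made by Rank Products. It was not run on the interaction between fraction and stage, and no result of it is given for partner genes.

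As deposited, 98% of the genes called in EPI at E12.5 against E11.5 were higher instead of 42.7%, with 9 members higher and none lower, beside 17.6% and 0.358% of all genes, and arrays centred on medians gave 30.1% and no member. In EPI of the VNO that share was 96% as deposited instead of 82.4% (7 members higher and none lower, beside 20.5% and 0.844% of all genes). In MES it was 67.1% instead of 79% in the OE (1 member higher and 3 lower, beside 5.06% and 2.49% of all genes, and 66.9% with the same member counts when centred), and 65.2% instead of 76.7% in the VNO (6 members higher and 3 lower, beside 6.35% and 3.38%), or 63.3% when centred (6 higher and 4 lower, beside 6.2% and 3.59%). Leaving out EPI OE E14.5 replicate 1, EPI E11.5 replicate 1 or EPI E11.5 replicate 3 left 3 members called in EPI of the OE. No member was called in MES at E12.5 without MES E12.5 replicate 3 or MES E11.5 replicate 2. In EPI at E12.5, 2 members were called without EPI E12.5 replicate 2.

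**Figure D1:**
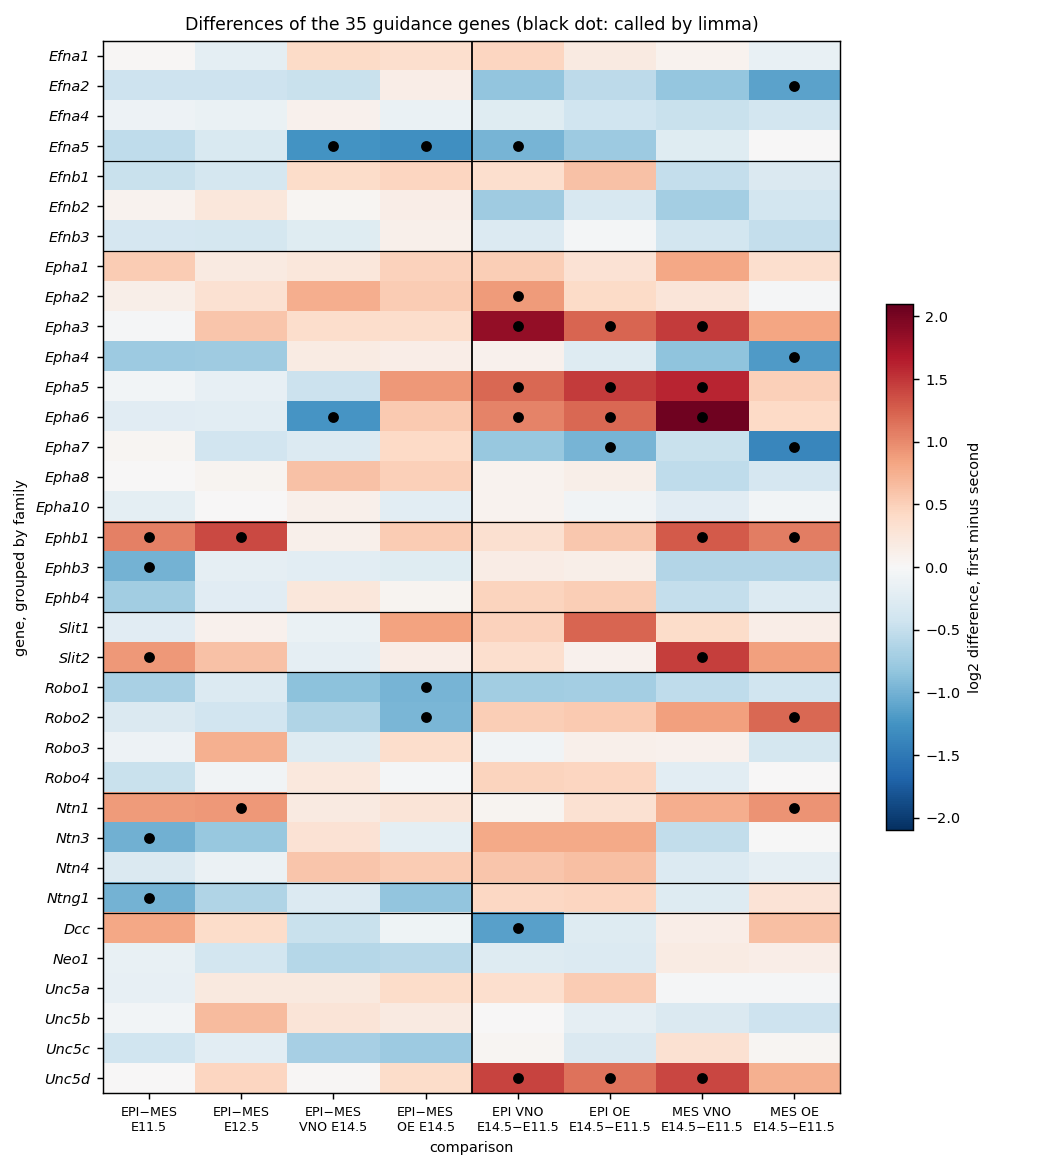
Log2 differences of the 35 guidance genes, grouped by family, for EPI minus MES at each stage (left) and for E14.5 minus E11.5 in each fraction (right), with red for higher and blue for lower in the group named first. Black dots mark genes called by limma after quantile normalization. Epha3, Epha5, Epha6 and Unc5d carry dots in 3 of the 4 stage columns, and Efna5 in both EPI minus MES columns of E14.5.

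Among the ephrin-A ligands, Efna5, which binds EphA receptors, had the widest gap between the fractions at E14.5. In the VNO it was at 9.65, 9.58 and 9.67 in EPI, against 10.91, 10.91 and 10.84 in MES, and in the OE at 10.07, 9.75 and 9.77 in EPI, against 11.12, 11.16 and 11.16 in MES. Every EPI value lay below every MES value in both tissues, with differences of -1.25 (SE 0.067, adjusted p = 0.000349, limma) in the VNO and -1.28 (SE 0.12, adjusted p = 0.00288, limma) in the OE, 2.38-fold and 2.43-fold lower in EPI. At E11.5 Efna5 was at 10.54, 10.71 and 10.61 in EPI, against 11.12, 11.23 and 11.08 in MES, and at E12.5 at 10.84, 10.65 and 10.86 in EPI, against 11.08, 11.11 and 11.11 in MES. These early differences of -0.53 and -0.32 did not overlap either and passed the p threshold but not the minimum size, although the E11.5 difference was -0.95 as deposited. Between stages, Efna5 fell by 0.98 in EPI of the VNO against E11.5 (SE 0.085, adjusted p = 0.000544, limma), and its difference in EPI of the OE was -0.76 (adjusted p below the threshold, size below the minimum), while the 3 MES values of the OE at E14.5 lay within the MES range of E11.5. When arrays were only centred, Efna5 was at -0.80 in the VNO and -0.88 in the OE between fractions, short of the minimum, and as deposited its EPI stage difference in the VNO was -0.77.

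Efna2, another lipid-anchored ligand of EphA receptors, fell with age in MES of the OE. It was at 8.29, 8.27 and 8.27 at E14.5, against 9.34, 9.44 and 9.41 at E11.5, a drop to 2.17-fold lower (log2 difference -1.12, SE 0.047, adjusted p = 0.000086, limma). In MES of the VNO the difference was -0.80, in EPI of the VNO -0.84 and in EPI of the OE -0.56, each under the minimum size. Efna1 and Efna4 were called in no comparison. Of the ephrin-B ligands, which also signal back into the cell that carries them, Efnb1, Efnb2 and Efnb3 were called in no comparison between fractions or stages. Efnb2, which marks arterial endothelium among other tissues, had differences of -0.75 and -0.71 in EPI and MES of the VNO against E11.5, while endothelial markers were called higher for 5 of 12 genes in EPI of the VNO at E14.5 and for none in MES, and their part in the values of Efnb2 was not tested.

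Of the EphA receptors, Epha3, Epha5 and Epha6 were higher at E14.5 in most tissues. Epha3 was at 8.68, 7.62 and 8.12 in EPI at E11.5, 9.48, 9.28 and 8.83 at E12.5, 10.06, 9.95 and 9.96 in the VNO and 9.66, 8.75 and 9.65 in the OE at E14.5. The E11.5 arrays thus spread widely, whereas the VNO arrays lay close together. The gap between the VNO at E14.5 and E11.5 was 1.85 (SE 0.26, adjusted p = 0.00244, limma), or 3.60-fold, and Epha3 was the one member that Rank Products called too in that comparison. For EPI of the OE the gap was 1.21 (SE 0.36, adjusted p = 0.0409, limma), and this call was lost without EPI OE E14.5 replicate 1 (1.06) or replicate 3 (1.06) and without EPI E11.5 replicate 2 (0.96) or replicate 3 (1.20). In EPI at E12.5 Epha3 was 1.05 higher than at E11.5 without passing the adjusted p, and as deposited (1.46) and in 4 further settings it was called.

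MES arrays gave narrower values for Epha3: 8.19, 8.16 and 8.14 at E11.5, 8.65, 8.54 and 8.63 at E12.5, 9.68, 9.53 and 9.67 in the VNO and 8.95, 9.01 and 9.01 in the OE at E14.5. No MES array at a later stage overlapped those of E11.5. The difference in MES of the VNO was 1.46 (SE 0.066, adjusted p = 0.000117, limma) and in MES of the OE 0.83, under the minimum size. Between fractions Epha3 was not called at any stage, with differences of EPI minus MES of -0.023, 0.59, 0.36 and 0.36 at E11.5, E12.5, VNO and OE.

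Epha6 showed the largest stage difference of all members. In the VNO at E14.5 the MES arrays had 6.49, 6.17 and 6.18, against 4.24, 4.28 and 4.22 in MES at E11.5, which is 4.10-fold (log2 difference 2.03, SE 0.10, adjusted p = 0.000163, limma). The E11.5 values lay far below the array medians, and the values carry no detection call or background level, so that whether Epha6 was detected at E11.5 is not known and this fold is one of measured intensities. The Epha6 values in EPI of the VNO and in both fractions of the OE lay below the medians too, so the same limit holds for the folds that use them. The VNO arrays labelled EPI had 5.15, 4.97 and 5.02, so that Epha6 was 2.35-fold lower in EPI than in MES of the VNO (-1.23, SE 0.12, adjusted p = 0.000989, limma), with no overlap. In MES of the OE the values were 4.64, 4.59 and 4.76, and the VNO arrays were 3.07-fold higher than these (1.62, SE 0.11, adjusted p = 0.00311, limma). EPI rose too, by 1.04 in the VNO (adjusted p = 0.000485, limma) and by 1.21 in the OE (adjusted p = 0.0127, limma) against 3.96, 4.01 and 4.06 at E11.5, and after an estimated share of MES was subtracted the VNO difference was 0.68, under the minimum. In EPI of the OE the values were 5.08, 5.75 and 4.84, highest in replicate 2, and the difference of 0.56 from MES was not called and was -0.26 as deposited. Immature neuron markers were called higher in MES of the VNO than in MES at E11.5 for 9 of 11 genes, with a median of 2.16. In the VNO their list level was higher in MES than in EPI, as given above. They were called higher for 9 of 11 genes in MES of the OE as well, where Epha6 was higher by 0.42, under the minimum size. Their part in the values of Epha6 was not tested.

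Epha5 had 7.67, 7.59 and 7.84 in MES of the VNO at E14.5, against 6.07, 6.14 and 6.10 in MES at E11.5 (1.60, SE 0.082, adjusted p = 0.000163, limma), and 6.41, 6.75 and 6.65 in MES of the OE, which the VNO arrays exceeded by 1.10 (SE 0.12, adjusted p = 0.00977, limma). In EPI it was at 7.17, 7.31 and 7.28 in the VNO and at 7.35, 8.34 and 6.86 in the OE, against 6.14, 6.01 and 5.998 at E11.5. The differences were 1.20 (SE 0.087, adjusted p = 0.000336, limma) and 1.47 (SE 0.36, adjusted p = 0.0243, limma). The OE value was lost to the call without EPI OE E14.5 replicate 1 (1.55) or any single array of E11.5 (1.44 to 1.51), while without replicate 2, the array of 8.34, it was kept. Epha5 in MES of the VNO against the OE was not called without MES OE E14.5 replicate 3 (1.12). At E12.5 Epha5 had 6.58, 6.67 and 6.49 in EPI and 6.78, 6.81 and 6.68 in MES, above all arrays of E11.5 in both fractions, with differences of 0.53 and 0.65 under the minimum size.

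**Figure D2:**
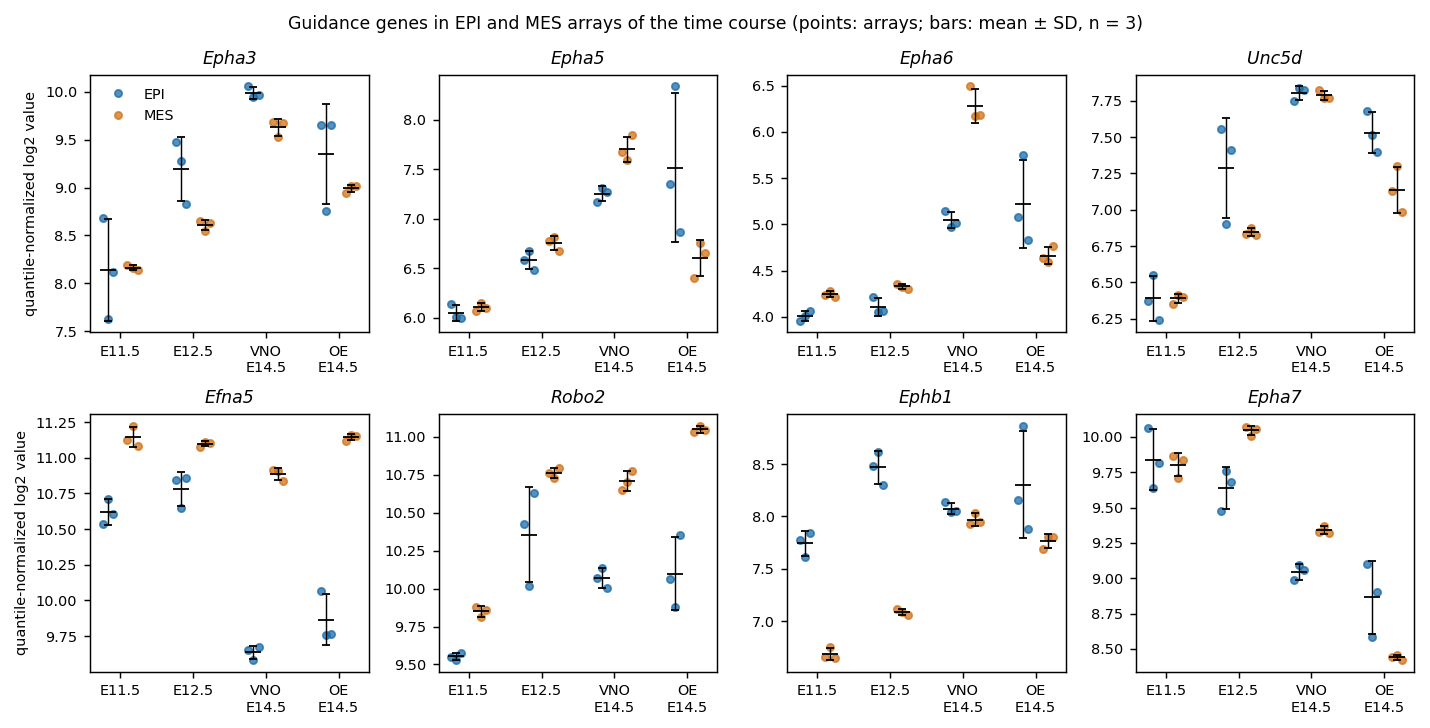
Quantile-normalized log2 values of 8 members in each EPI and MES array by stage, with mean and SD over 3 arrays in black; each panel has its own vertical axis, which does not start at 0. Epha3, Epha5, Epha6 and Unc5d lie higher at E14.5 than at E11.5, Efna5 lies lower in EPI than in MES of E14.5, and Ephb1 differs between fractions at E11.5 and E12.5.

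Because Epha3, Epha5 and Epha6 rose together, the 250 bases upstream of a transcript start of each are shown, from the RefSeq promoter table of GRCm38.p6, 5' to 3' on the strand of the gene. The windows are chr16:63864176-63864425 (minus strand) for Epha3, chr5:84417383-84417632 (minus strand) for Epha5 and chr16:60605532-60605781 (minus strand) for Epha6. The Epha3 window adjoins the end of the annotated gene, at 63864175, whereas the annotated genes run on to 84417818 for Epha5 and 60610911 for Epha6, so these windows lie inside them, before a start that is not the outermost. Capitals mark CG dinucleotides.
Epha3: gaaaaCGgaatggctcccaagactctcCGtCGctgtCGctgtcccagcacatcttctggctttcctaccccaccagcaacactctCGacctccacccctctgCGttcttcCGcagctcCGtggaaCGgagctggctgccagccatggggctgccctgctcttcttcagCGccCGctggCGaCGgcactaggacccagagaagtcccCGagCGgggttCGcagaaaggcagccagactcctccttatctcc
Epha5: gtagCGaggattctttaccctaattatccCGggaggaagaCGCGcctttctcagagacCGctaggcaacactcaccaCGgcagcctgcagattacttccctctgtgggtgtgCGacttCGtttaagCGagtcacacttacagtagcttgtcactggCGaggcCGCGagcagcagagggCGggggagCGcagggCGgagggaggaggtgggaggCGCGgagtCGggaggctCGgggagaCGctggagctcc
Epha6: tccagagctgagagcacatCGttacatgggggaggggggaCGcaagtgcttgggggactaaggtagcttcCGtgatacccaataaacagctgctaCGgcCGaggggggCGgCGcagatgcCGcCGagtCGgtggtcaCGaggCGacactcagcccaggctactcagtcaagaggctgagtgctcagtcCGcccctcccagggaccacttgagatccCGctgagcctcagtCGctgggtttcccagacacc
They hold 16, 20 and 15 CG dinucleotides, and 27.3% of all 32851 windows in the table hold 15 or more. Such a count was reached by 20 of the 34 windows of the 30 members found there, so CG-rich starts are common among the members. The letters TAATT, a core read by many homeodomain proteins, of which Dlx5 is one, were searched on both strands, where the opposite strand reads AATTA. They stand in the Epha5 window from base 21 and not in those of Epha3 and Epha6. Of the 34 member windows 9 hold them, from 8 of the 30 member genes, beside 25% of all windows of this length.

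Other EphA receptors took the opposite course. Epha7 was at 8.45, 8.46 and 8.42 in MES of the OE at E14.5, against 9.87, 9.71 and 9.84 in MES at E11.5 (-1.36, SE 0.058, adjusted p = 0.000093, limma), and at 9.10, 8.59 and 8.91 in EPI of the OE, against 10.07, 9.64 and 9.82 in EPI at E11.5 (-0.97, SE 0.18, adjusted p = 0.0109, limma). Neither pair of groups overlapped. The EPI difference was -0.84 without EPI OE E14.5 replicate 2, -0.86 without EPI E11.5 replicate 1 and -0.89 as deposited, below the minimum each time, whereas the MES call was kept in every setting, Rank Products included. In the VNO, Epha7 had differences of -0.79 in EPI and -0.46 in MES. Epha4, which binds ephrins of both classes, fell in MES of the OE to 9.25, 9.26 and 9.18, against 10.44, 10.41 and 10.39 at E11.5 (-1.18, SE 0.047, adjusted p = 0.000075, limma), and had 9.55, 9.60 and 9.56 in MES of the VNO. In EPI its values at E14.5 were 9.74, 9.77 and 9.71 in the VNO and 9.42, 9.05 and 9.67 in the OE, against 9.86, 9.57 and 9.53 at E11.5.

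Epha2 was called once, in EPI of the VNO, at 8.03, 8.13 and 8.02, against 7.18, 7.22 and 7.08 at E11.5 (0.90, SE 0.083, adjusted p = 0.000656, limma). Its second cluster gave -0.052 there, and their mean 0.42, so the 2 clusters disagree. The call was also lost without EPI VNO E14.5 replicate 2 (0.87) or EPI E11.5 replicate 3 (0.86). Epha1, Epha8 and Epha10 were called in no comparison.

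Among EphB receptors, Ephb1 separated the fractions early. It was at 7.77, 7.61 and 7.84 in EPI, against 6.66, 6.76 and 6.65 in MES, at E11.5 (1.06, SE 0.089, adjusted p = 0.00233, limma) and at 8.48, 8.62 and 8.31 in EPI, against 7.12, 7.09 and 7.06 in MES, at E12.5 (1.38, SE 0.096, adjusted p = 0.00125, limma). By E14.5 the MES arrays had 7.92, 8.04 and 7.95 in the VNO and 7.69, 7.80 and 7.80 in the OE, rises of 1.28 (adjusted p = 0.000149, limma) and 1.08 (adjusted p = 0.000195, limma) over E11.5. Epithelial markers were higher in the same MES arrays. Sustentacular cell markers had list levels of 7.63 to 7.81 in the VNO and 7.76 to 7.84 in the OE, against 4.54 to 4.75 at E11.5, with 7 of 8 called higher in each, and their part in the Ephb1 values was not tested. EPI then had 8.13, 8.05 and 8.05 in the VNO and 8.16, 8.87 and 7.88 in the OE, and the differences between fractions were 0.11 and 0.54, neither called. As deposited the E11.5 difference was 0.42. Ephb3 was at 9.28, 9.44 and 8.998 in EPI, against 10.20, 10.30 and 10.21 in MES, at E11.5 (-0.996, SE 0.13, adjusted p = 0.00597, limma), and -0.88 both without EPI E11.5 replicate 3 and when arrays were centred. At later stages its differences between fractions were -0.19 to -0.26. Ephb4, a receptor of venous endothelium, was called in neither fraction at any stage, and had 9.36, 9.57 and 8.99 in EPI, against 10.04, 10.07 and 10.02 in MES, at E11.5.

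Slit2, a secreted ligand of the Robo receptors, was at 9.24, 8.55 and 9.32 in EPI at E11.5, against 8.14, 8.13 and 8.12 in MES (0.91, SE 0.21, adjusted p = 0.0276, limma). This call rested on few arrays: it was lost on leaving out any array but EPI E11.5 replicate 2, at differences of 0.77 to 0.91, and the difference was 0.37 as deposited. In MES, Slit2 rose to 9.54, 9.51 and 9.67 in the VNO at E14.5, above all MES arrays of E11.5 (1.45, SE 0.065, adjusted p = 0.000115, limma), and was at 8.99, 9.01 and 8.97 in the OE, a difference of 0.86 under the minimum. EPI had 9.35, 9.41 and 9.39 in the VNO, and EPI minus MES there was -0.19. Slit1 was called in no comparison. It had 6.45, 7.93 and 6.16 in EPI of the OE at E14.5, highest in replicate 2, against 5.66, 5.64 and 5.59 at E11.5, with no overlap, and the difference of 1.22 did not pass the adjusted p.

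The Robo receptors Robo1 and Robo2, found on olfactory axons in mice, were lower in EPI than in MES of the OE at E14.5. Robo1 was at 10.03, 10.02 and 10.14 in EPI, against 11.05, 11.03 and 11.03 in MES (-0.97, SE 0.085, adjusted p = 0.00268, limma), and Robo2 at 10.06, 9.88 and 10.35 in EPI, against 11.03, 11.08 and 11.05 in MES (-0.95, SE 0.14, adjusted p = 0.00682, limma). No EPI array reached a MES array for either gene. Robo2 was at -0.84 without EPI OE E14.5 replicate 2, and with arrays centred on their medians the differences were -0.55 for Robo1 and -0.53 for Robo2. In the VNO they were -0.87 and -0.64, under the minimum size. With age, Robo2 in MES was at 9.88, 9.81 and 9.86 at E11.5, 10.76, 10.73 and 10.80 at E12.5, 10.65, 10.70 and 10.78 in the VNO and 11.03, 11.08 and 11.05 in the OE at E14.5. The rise was 0.91 by E12.5 (SE 0.043, adjusted p = 0.000634, limma) and 1.20 in the OE (SE 0.045, adjusted p = 0.000064, limma), with 0.86 in the VNO under the minimum. The E12.5 call sat at the minimum size, with 0.90 without MES E12.5 replicate 3, 0.89 without MES E11.5 replicate 2 and 0.89 as deposited. The OE difference was 0.90, just under the minimum, both as deposited and with arrays centred on their medians. In MES of the OE, immature neuron markers were called higher than at E11.5 for 9 of 11 genes (list level 9.03 to 9.15, against 7.62 to 7.67), and their part in the Robo2 values was not tested. Robo3 and Robo4 were called in no comparison.

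Of the netrin genes, Ntn1, a ligand of Dcc, was at 7.84, 8.15 and 7.66 in EPI, against 6.96, 6.93 and 7.01 in MES, at E12.5 (0.91, SE 0.13, adjusted p = 0.00824, limma), and at 0.90 at E11.5, just under the minimum. The E12.5 difference was 0.78 without EPI E12.5 replicate 2, 0.89 without MES E12.5 replicate 2 and 0.71 as deposited. In MES, Ntn1 rose to 7.63, 7.41 and 7.63 in the OE at E14.5, against 6.52, 6.69 and 6.64 at E11.5 (0.94, SE 0.086, adjusted p = 0.000916, limma), with 0.89 without MES E11.5 replicate 1 and 0.86 as deposited. Ntn3 took the other direction between fractions. It was at 7.27, 7.51 and 7.04 in EPI, against 8.21, 8.43 and 8.20 in MES, at E11.5 (-1.01, SE 0.14, adjusted p = 0.00765, limma; -0.89 without EPI E11.5 replicate 3), and the difference was -0.80 at E12.5, 0.31 in the VNO and -0.21 in the OE. Ntn4 was called in no comparison. Ntng1, a lipid-anchored relative of the netrins that does not bind Dcc, was at 5.97, 6.34 and 5.99 in EPI, against 7.15, 7.05 and 7.09 in MES, at E11.5 (-0.998, SE 0.12, adjusted p = 0.00542, limma), and at -0.63, -0.28 and -0.83 at E12.5, in the VNO and in the OE.

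Of the netrin receptors, Unc5d rose in both fractions. In EPI it was at 6.37, 6.55 and 6.24 at E11.5, 7.55, 6.90 and 7.41 at E12.5, 7.75, 7.84 and 7.83 in the VNO and 7.68, 7.51 and 7.40 in the OE at E14.5. In MES it was at 6.35, 6.41 and 6.40, then 6.83, 6.88 and 6.82, then 7.82, 7.77 and 7.77 in the VNO and 7.13, 7.30 and 6.98 in the OE. No array of E14.5 overlapped those of E11.5 in either fraction. Against E11.5 the VNO differences were 1.42 in EPI (SE 0.10, adjusted p = 0.00034, limma) and 1.40 in MES (SE 0.054, adjusted p = 0.000081, limma), and the OE difference was 1.14 in EPI (SE 0.14, adjusted p = 0.00317, limma) and 0.75 in MES, under the minimum size. EPI minus MES for Unc5d lay between 0.00044 and 0.44 and was called at no stage.

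Dcc, the main netrin receptor for attraction, moved in the opposite direction in EPI of the VNO. It was at 7.05, 7.003 and 6.82 at E14.5, against 8.17, 7.78 and 8.36 at E11.5 (-1.14, SE 0.17, adjusted p = 0.00269, limma), 2.21-fold lower and with no overlap, and the difference was -0.87 as deposited. EPI of the OE gave 7.61, 9.24 and 6.63, the widest spread of a member within a group, with replicate 2 at the top, where neuron markers were highest too. MES had 7.36, 7.26 and 7.26 at E11.5, 7.49, 7.33 and 7.46 in the VNO and 7.86, 7.99 and 7.92 in the OE. Neo1, the relative of Dcc that also binds repulsive guidance molecules, had differences of EPI minus MES of -0.15, -0.39, -0.59 and -0.57 at E11.5, E12.5, VNO and OE and was called at none. Unc5a, Unc5b and Unc5c, receptors for repulsion by netrins, were called in no comparison, and Unc5c in EPI of the OE was lowest in replicate 2 (8.999, 8.01 and 9.27).

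For some members the stage difference itself differed between EPI and MES, tested as an interaction on the 12 arrays concerned. In the VNO 3 members had a higher change in EPI than in MES and 4 a lower one, beside 7.74% and 4.38% of all genes (12.1% either way). In the OE 2 had a higher one and none a lower one, beside 5.5% and 2.45% (7.95% either way). Ntn3 (1.31), Ephb4 (0.97) and Epha4 (0.93) were the higher ones in the VNO, and Dcc (-1.28), Slit2 (-1.10), Epha6 (-0.999) and Ephb1 (-0.95) the lower ones. These VNO values hold only as far as the EPI and MES labels of the VNO arrays do. Dcc was at -1.14 in EPI and 0.14 in MES, and Ntn3 at 0.80 in EPI and -0.52 in MES. In the OE the called members were Efnb1 (0.92), which was at 0.61 in EPI and -0.31 in MES, and Epha4 (0.91), at -0.28 in EPI and -1.18 in MES. As deposited 91.9% of called genes were higher in the OE interaction (7 members higher and none lower, beside 14.4% and 1.27% of all genes) and 92.2% in the VNO interaction (11 higher and 1 lower, beside 24.6% and 2.08%), instead of 69.2% and 63.9%, and with centred arrays 80.7% (5 higher, beside 7.69%) and 74.4% (5 higher and 2 lower, beside 10.8% and 3.73%). The OE count fell to none without EPI E11.5 replicate 3, was 1 without EPI OE E14.5 replicate 1 or without MES OE E14.5 replicate 2 or replicate 3 or MES E11.5 replicate 1 or replicate 2, and was 4 without EPI OE E14.5 replicate 2 or replicate 3 or EPI E11.5 replicate 2.

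**Figure D3:**
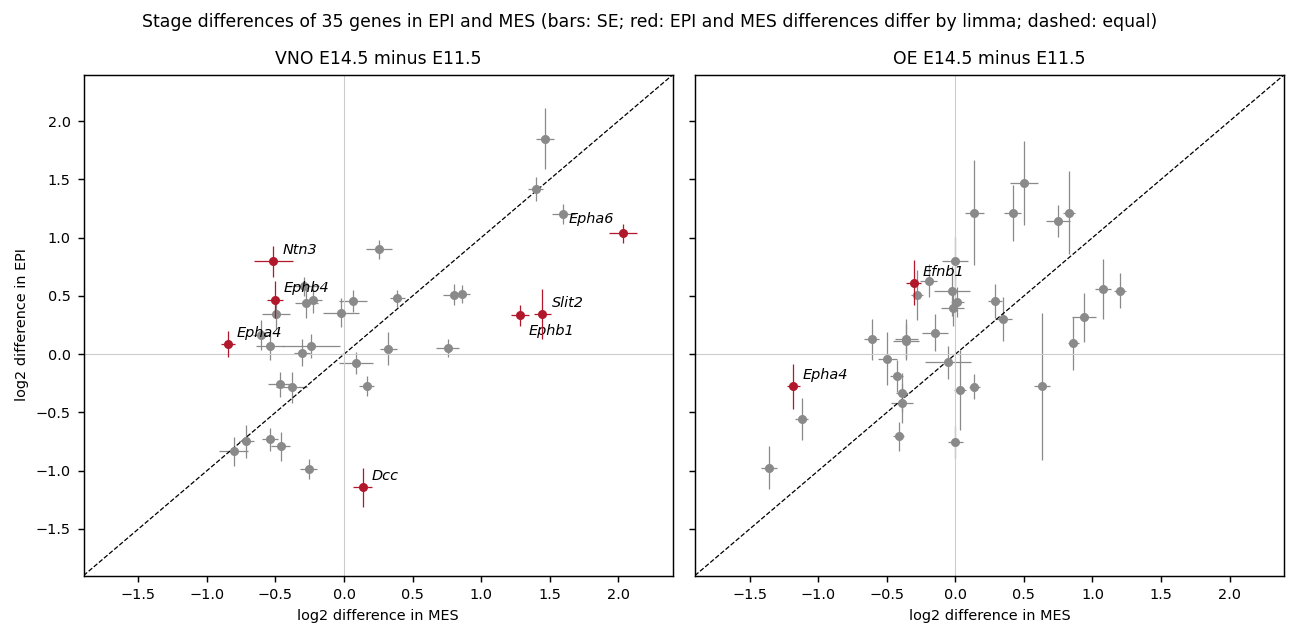
Log2 difference of E14.5 minus E11.5 in EPI (vertical) against MES (horizontal) for the 35 members, in the VNO (left) and the OE (right), with bars for the SE and a dashed line of equal differences. Red marks members whose 2 differences were called different by limma, 7 in the VNO and 2 in the OE, and Dcc and Ntn3 lie farthest from the line in the VNO.

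Between the tissues of E14.5, Epha6 and Epha5 were called higher in MES of the VNO than of the OE, as given above, beside 0.669% of all genes, and none lower, beside 0.844% (1.51% either way). VNO and OE arrays did not overlap for 25 members in MES, beside 41.7% of all genes, and for 10 in EPI, beside 28.7%. In that pair Epha7 reached 0.90, at 9.33, 9.37 and 9.32 in the VNO, against 8.45, 8.46 and 8.42 in the OE, just short of the minimum. Under a replicate block neither Epha5 nor Epha6 was called, although their differences stayed the same. In EPI, no member and no gene was called by limma between VNO and OE. There 4 members were under an unadjusted p of 0.05 in limma, beside 15.3% of all genes, Rank Products called no member beside 0.284% of all genes, and the spread of the OE arrays was wide for many genes, such as Epha3, at 10.06, 9.95 and 9.96 in the VNO and 9.66, 8.75 and 9.65 in the OE.

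Partners and effectors of these receptors were looked at as a list of 32 genes, 27 of them measured. Between stages, MES of the OE at E14.5 had 3 called higher, beside 6.13% of all genes, and 1 lower, beside 1.63%. MES of the VNO had 3 higher, beside 7.15%, and none lower, beside 2.17%. Each EPI comparison with E11.5 had Flrt1 alone, higher by 1.22 at E12.5, 1.05 in the VNO and 1.26 in the OE. Beside it, 1.37%, 10.3% and 9.44% of all genes were called higher in the same order. Those of MES were the cell-surface proteins Flrt1, which binds Robo receptors (2.36 in the VNO and 1.75 in the OE), Dscam, a netrin receptor (1.57 and 0.97), Lrrc4c, the ligand of netrin-G1 (1.04 and 1.32), and in the OE Flrt2, a ligand of Unc5d, which was lower (-1.51). Dscam was higher in EPI than in MES at E11.5 (1.26) and E12.5 (1.65), beside 3.93% and 3.46% of all genes. In EPI of the VNO, Flrt1 (-1.13), Rgma, a ligand of Neo1 (-1.02), and Flrt2 (-0.99) were lower than in MES, beside 2.02% of all genes. In the OE none of the 27 was called, beside 7.89%. Between VNO and OE, Flrt2 was higher in MES of the VNO (1.42), beside 0.669%, and in EPI no gene at all was called. Genotype gave none, beside 0.00673% of all genes. The change of Dscam (-1.83) and Flrt1 (-1.31) in the VNO was lower in EPI than in MES, beside 4.38%. That of Flrt2 in the OE was higher (0.91), beside 5.5%. Cytoplasmic adaptors such as Nck1, Nck2, Abl1 and Trio were called in none of the comparisons between fractions, stages or genotypes.

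The Dlx5 arrays asked which genes depend on Dlx5, a homeodomain factor of the olfactory placode. Dlx5 itself was at 10.33, 10.30 and 10.11 in KO arrays, against 10.95, 10.99 and 10.97 in WT arrays, a difference of -0.72 (SE 0.097, adjusted p = 0.117, limma) without overlap. No member was called, beside 0.00673% of all genes, which is 1 gene. Under an unadjusted p of 0.05 in limma stood 15 of the 35 members, beside 15.6% of all genes, and Rank Products called no member beside 0.767% of all genes. For 19 of the 35 members KO and WT arrays did not overlap, which was so for 25.8% of all genes. The members' median was 0.22, with 27 of 35 above 0, beside a median of 0.029 over all genes.

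Dcc was at 9.06, 9.33 and 9.58 in KO arrays, against 9.92, 10.43 and 10.01 in WT arrays, with a difference of -0.79 (adjusted p = 0.209, limma). Ntn1 was at 8.63, 9.33 and 9.26 in KO arrays, against 9.89, 9.51 and 9.70 in WT arrays, with a difference of -0.63 (adjusted p = 0.279, limma). For these 2 genes every KO array lay below every WT array. The largest positive differences were those of Unc5c and Unc5d. Unc5c was at 11.50, 11.20 and 11.06 in KO arrays, against 10.25, 10.43 and 10.47 in WT arrays (0.87, adjusted p = 0.143, limma), and Unc5d at 9.18, 9.68 and 9.29, against 8.24, 8.65 and 8.82 (0.81, adjusted p = 0.215, limma). Epha4 had 11.63, 11.26 and 11.28 in KO arrays, against 10.35, 10.62 and 10.90 in WT arrays (0.76, adjusted p = 0.208, limma). None of these KO arrays overlapped a WT array, whereas Epha3, at 11.52, 11.15 and 10.19 in KO arrays and 9.86, 10.20 and 10.59 in WT arrays, did. Ephb4 (0.61), Ntn3 (0.65) and Efnb1 (0.57) also had all KO arrays above all WT arrays. Epha6 was at -0.042 and Efna5 at -0.19, and both overlapped.

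No gene of any marker list was called between genotypes. Immature neuron markers lay at 10.52 to 11.28 in KO arrays, against 11.67 to 11.80 in WT arrays, with a median of -0.58, and nasal mesenchyme markers at 10.76 to 11.33, against 10.51 to 10.71, with a median of 0.59. Ensheathing glia markers lay at 8.90 to 9.18 in KO arrays and 9.42 to 9.60 in WT arrays. Fabp7 (-1.92) had by far the widest gap of that list. Foxd3 (-0.44), Mpzl2 (-0.36) and Gfra3 (-0.28) differed less, and Sox10 (-0.12), S100b (-0.031) and Erbb3 (0.046) lay near 0. The list of respiratory and surface epithelium lay at 9.21 to 9.77 in KO arrays and 9.40 to 9.44 in WT arrays, with a median of -0.039, and held large differences of both signs, such as the basal keratins Krt5 (1.25), Krt14 (1.18) and Krt17 (1.04) and the basal cell factor Trp63 (0.80) above 0 and Epcam (-0.83) below. Sustentacular cell markers lay at 7.46 to 8.46 in KO arrays and 8.60 to 8.84 in WT arrays, but did not move as a set. Cyp2g1 (-2.44), Ermn (-1.48), Sult1c1 (-0.84) and Krt18 (-0.40) lay below 0. Aldh1a1 (-0.12) and Cyp1a2 (-0.088) lay near it, and Cbr2 (0.48) and Cyp2f2 (0.23) above it. The single genes of these lists were named after their values were seen. The part of these markers in the values of the members was not tested. In the time course at E12.5, Dcc had EPI minus MES of 0.38 and Ntn1 of 0.91, and Epha4 of -0.74, Unc5c of -0.22 and Unc5d of 0.44.

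**Figure D4:**
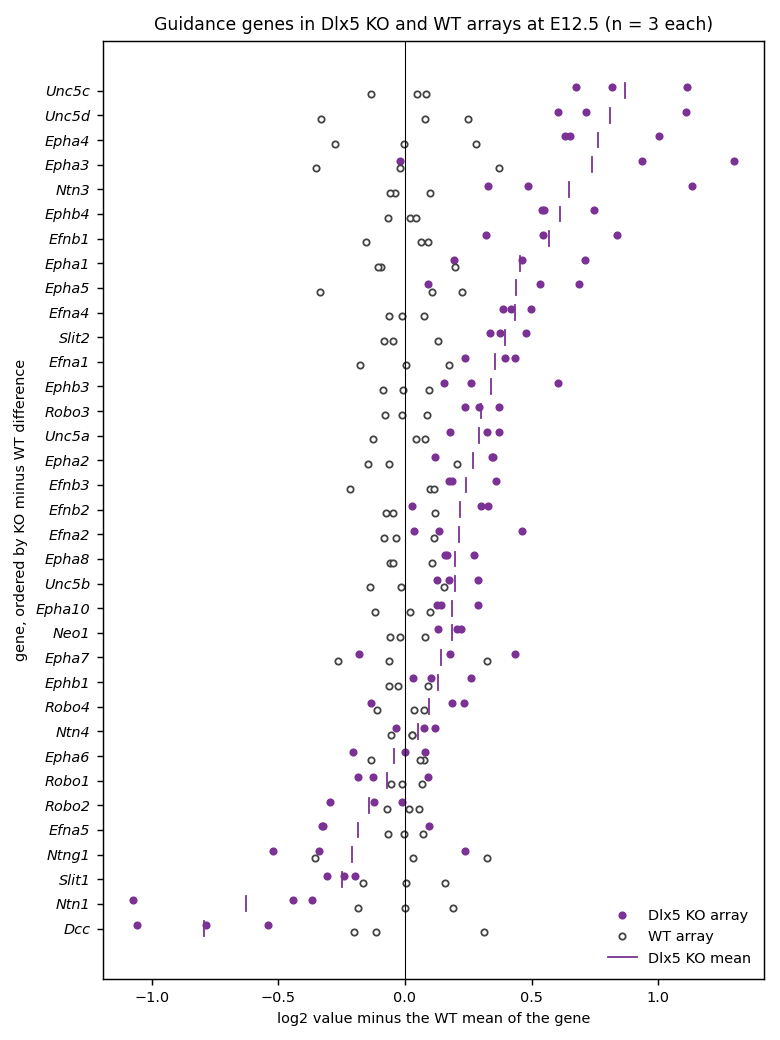
Log2 value of each Dlx5 KO array (filled) and WT array (open) minus the WT mean of the gene, for the 35 members ordered by their KO minus WT difference, with a tick at the KO mean. Dcc and Ntn1 lie lowest and Unc5c and Unc5d highest, and no member was called.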

How the data were processed

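RNA of 30 pools of mouse embryonic olfactory tissue was measured on Affymetrix exon arrays. The deposited values are log2 intensities made by the authors with RMA, 1 for each of 23339 transcript clusters, with genome build mm9 named in the submitters' processing notes. According to the methods RMA was run separately for pairs of groups, and Rank Products with a minimum log2 change chose the genes.

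From these values, arrays were quantile-normalized over the 24 time-course arrays or the 6 Dlx5 arrays, which are on separate scales and were never compared. Each comparison was fitted with limma 3.58.1 (R 4.3.3) on its 6 arrays, or 12 for a difference between fractions, with Benjamini-Hochberg adjustment over all clusters. An exact permutation test of 3 against 3 arrays cannot go below p = 0.1 and was not used for calls. The scripts were tested on simulated data. Within each comparison the called members are named with the largest change first, at most 8 in each direction, always with Epha3, Epha6 and Efna5, which the study names. From the partner and marker lists the called genes of largest change may be named. The members and lists were chosen with earlier results of these data known. Gene names came from the platform annotation, and clusters with several symbols were left out. The number of arrays limits the precision. Alternatives covered scaling, filters, the test, the replicate block, a subtraction of mesenchyme and leaving out each array.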

Additional observations from a re-analysis of the deposited data

Results flagged for a closer look

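For 9 results the change from E11.5 to E14.5 differed between EPI and MES by the interaction test of limma, each given as the EPI change minus the MES change on the log2 scale. In the VNO these were Ntn3 (1.31, SE 0.20, adjusted p = 0.000699), Ephb4 (0.97, SE 0.17, adjusted p = 0.0017), Epha4 (0.93, SE 0.12, adjusted p = 0.00026), Dcc (-1.28, SE 0.19, adjusted p = 0.000558), Slit2 (-1.10, SE 0.24, adjusted p = 0.00454), Epha6 (-0.999, SE 0.13, adjusted p = 0.000307) and Ephb1 (-0.95, SE 0.11, adjusted p = 0.000121). In the OE they were Efnb1 (0.92, SE 0.21, adjusted p = 0.00998) and Epha4 (0.91, SE 0.21, adjusted p = 0.0102).

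Some of these calls depended on the scaling or on single arrays. In the VNO, Slit2 was at -0.53 (adjusted p = 0.126) on the values as deposited and at -0.84 with arrays centred on their medians, Ephb1 at -0.42 and -0.73 in the same order, and Epha6 at -0.73 as deposited, each under the minimum size. In the VNO, Epha4 was at 0.89 without EPI E11.5 replicate 2 and at 0.87 without EPI E11.5 replicate 3, Ephb4 at 0.81 without EPI E11.5 replicate 3, and Epha6 at -0.89 without MES VNO E14.5 replicate 1. In the OE, Efnb1 lost its call without any of 5 arrays, at 0.80 to 0.89, and Epha4 without any of 6, at 0.76 to 0.89. Markers of immature neurons and of nasal mesenchyme differed between these arrays too, and their part in these values was not tested.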

How the results depend on the processing

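Of 81 results for single members, 1331 alternative values were computed. Of these, 1193 kept direction and side of the threshold, 103 fell short of the threshold and 22 passed it newly. The counts of 1193 and 22 include the setting without a minimum size of change, which leaves every value as it was. It keeps every called result called and newly calls each uncalled result with an adjusted p of at most 0.05. Efna5 in EPI minus MES at E12.5 (-0.32), for example, entered the 22 in this way. Such entries were fixed by the main fit and do not test robustness. The remaining 13 values changed sign, each for a value called neither before nor after. As deposited these were Epha6 in EPI minus MES of the OE (-0.26), Efna5 in MES of the OE against E11.5 (-0.24) and Epha6 in EPI of the VNO minus the OE (0.091). With arrays centred they were Epha3 in EPI minus MES at E11.5 (0.0089), Efna5 in EPI at E12.5 against E11.5 (-0.19) and Efna5 in MES of the OE (-0.25). Leaving out 1 array, Epha3 in EPI minus MES at E11.5 ran from -0.29 to 0.24, Efna5 in MES of the OE from -0.030 to 0.041, Epha6 in EPI of the VNO minus the OE from -0.37 to 0.089 and Epha6 between genotypes from -0.11 to 0.041. Counts of called members moved more. With values as deposited they were 16 for EPI against MES at E11.5, 9 for EPI at E12.5 against E11.5, 0 for MES at E12.5, and 7 and 12 for the difference between fractions in the OE and the VNO. With arrays centred on their medians they were 1 for EPI against MES at E12.5, 0 in the OE, 0 for MES at E12.5, 10 for MES of the VNO and 5 for the difference between fractions in the OE. Normalizing only the 6 arrays of a pair gave 1 for EPI against MES at E12.5 and 0 for MES at E12.5.

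Rank Products called 0 members for EPI against MES at E11.5, 1 at E12.5 and 0 each in the OE and the VNO. The shares of all genes called were 1.92%, 2.24%, 1.18% and 1.61% in the same order. Between stages it called 0 for EPI of the OE, 1 for EPI of the VNO, 0 for MES at E12.5 and 1 for MES of the OE, and 1 for MES of the VNO against the OE. The shares there were 2.11%, 3.07%, 1.23%, 3.63% and 0.743%. Only clusters brighter than the median gave 1 for EPI against MES in the VNO, 1 for EPI at E12.5, 3 for EPI of the OE and 0 for MES of the VNO against the OE. This filter removed Epha5, Epha6 and Ntng1 from the time-course tests, so these genes could not be called under it. For EPI at E12.5, averaging the clusters of each gene, a trend with intensity, a single fit to all 24 arrays and the subtraction of mesenchyme each gave 1. Without a minimum size of change, the counts for EPI against MES were 18 at E11.5 (31.3% of all genes were called), 17 at E12.5 (28.8%), 8 in the OE (36.8%) and 19 in the VNO (50%). Against E11.5 they were 5 (17.2%), 13 (36.1%) and 22 (51.3%) for EPI at E12.5, OE and VNO, and 15 (12.8%), 25 (46.9%) and 27 (43.2%) for MES. They were 13 (10.5%) for MES of the VNO against the OE, and 13 (29.9%) and 20 (44%) for the difference between fractions in the OE and the VNO. The causes of the other shifts in count were not tested. In this section, counts without a percentage beside them are of members alone, so a shift in them is not a result about the members.

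Leaving out 1 array gave between 3 and 7 called members for EPI against MES at E11.5, between 1 and 2 for E12.5, between 2 and 4 in the OE, and 2 in the VNO. Against E11.5 it gave 0 to 2 for EPI at E12.5, 3 to 5 in the OE and 6 to 8 in the VNO, and for MES 0 to 1 at E12.5, 5 to 6 in the OE and 6 in the VNO. It gave 0 for EPI and 1 to 3 for MES of the VNO against the OE, 0 for genotype, and 0 to 4 (OE) and 5 to 9 (VNO) for the difference between fractions. These are counts of members alone, without the share of all genes called in the same settings.

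Arrays of different groups share replicate numbers, but in no comparison did all 3 pairs of same-numbered arrays deviate together with a correlation over 0.1 (range -0.184 to 0.281), so the numbers were not taken as pairs. With 3 arrays per group this rule cannot exclude pairing. For MES of the VNO against E11.5, for example, the correlations were 0.175, 0.281 and 0.0809. Whether OE and VNO pools of E14.5 came from the same embryos is not stated in the sources used here. With the replicate number as a block, 0 members were called for MES of the VNO against the OE instead of 2, and 4 instead of 5 for EPI against MES at E11.5, where Slit2 was lost.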
